A study of Mus musculus with 2 samples.

Results

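In ischemic brain of Foxp3Egfp mice, a small group of the sorted single cells carried transcripts of blood monocytes together with transcripts of Arg1, the cytosolic arginase that splits arginine into ornithine and urea. These cells were chosen by their counts of unique molecular identifiers (UMIs, each standing for 1 captured transcript). A cell had to hold at least 3 UMIs of Arg1 and at least 5 UMIs of the monocyte genes Ly6c2, Plac8 and Chil3 together. It also had to hold fewer than 10 UMIs per 10000 of the microglia genes P2ry12, Tmem119, Sparc, Gpr34, Olfml3 and Siglech, no UMI of Marco or Cd209a, and fewer than 50 per 10000 of the neutrophil genes S100a8 and S100a9. Of 22960 cells, 292 met the rule, 134 of 15050 in replicate 1 and 158 of 7910 in replicate 2. They are named Arg1 monocyte cells here.

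Both libraries came from Foxp3Egfp mice, aged 6 to 8 weeks, whose regulatory T cells glow green because a reporter follows their factor Foxp3. The mice were perfused with PBS, and brain cells positive for CD45, CD11b and F4/80 and negative for CD3 were sorted before droplet capture with the Chromium 3' v3 kit. The series' design text mentions a low signal in this sort and does not name the marker, and that choice bears on the shares of cell types. There was 1 group of 2 replicate libraries and no control group, so every comparison was made between groups of cells within the same libraries. The labels speak of pooled cDNA of mice with stroke and leave unsaid whether each replicate was another animal. P-values therefore measure only how differences between groups of cells varied between these libraries, after each library's own level was removed. That variation may be technical.

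Monocytes that leave the blood for injured tissue turn into macrophages over days. Ly6c2, Plac8 and Chil3 are transcripts of inflammatory monocytes and fade along that course, while complement, lysosomal and lipid-transport transcripts accumulate. Arginase 1 competes with nitric oxide synthase for arginine and marks macrophages in wounds, in tumors and around cells low in oxygen. Thbs1 encodes thrombospondin 1, a matrix protein that binds platelets and activates TGF-beta.

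Cells from the same libraries, gated on the same microglia and neutrophil limits, served for comparison. Arg1-zero monocytes met the monocyte gene minimum and held no Arg1 UMI (426 and 371 cells in replicates 1 and 2). Arg1 macrophages held at most 1 UMI of the monocyte genes and at least 3 of Arg1 (313 and 60 cells). Arg1-zero macrophages held at most 1 monocyte gene UMI and no Arg1 (3562 and 334 cells). These groups also had to lack Cd3e, Nkg7 and Cd79a and to hold at least 5 UMIs of Fcer1g and Tyrobp together, a pair of limits that 133 and 157 of the Arg1 monocyte cells met too. Median UMIs per cell were 3934 and 7378.5 in the Arg1 monocyte cells, 2961.5 and 6779 in the Arg1-zero monocytes, and 5691 and 8690 in the Arg1 macrophages. The libraries held 101893367 and 62850768 UMIs in all, and no barcode was shared among the Arg1 monocyte cells of the libraries, although 31 barcodes of all cells were.

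Promoter stretches of a pair of gene groups on which the comparisons turn are printed here, so that the letters they share can be seen. Glycolysis and hypoxia genes were higher in Arg1 monocyte cells than in Arg1-zero monocytes. Their windows, from 250 bases before to 50 after the transcription start on RefSeq's GRCm38.p6, were searched on both strands for ACGTG, which reads CACGT on the other strand and is the core bound by hypoxia-inducible factor, a core that E-box factors share in part. Capitals mark each match, read 5′ to 3′ on the gene's strand, for phosphoglycerate kinase (Pgk1, chrX:106186850-106187149, plus strand), the mitophagy receptor Bnip3 (chr7:138909457-138909756, minus strand) and the lactate exporter Slc16a3 (chr11:120948817-120949116, plus strand).
Pgk1: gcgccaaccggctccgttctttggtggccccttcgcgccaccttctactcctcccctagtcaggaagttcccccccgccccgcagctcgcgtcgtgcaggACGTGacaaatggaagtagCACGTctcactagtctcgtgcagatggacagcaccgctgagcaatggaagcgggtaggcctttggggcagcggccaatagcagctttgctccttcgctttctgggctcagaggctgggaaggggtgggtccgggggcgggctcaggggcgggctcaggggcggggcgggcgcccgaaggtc
Bnip3: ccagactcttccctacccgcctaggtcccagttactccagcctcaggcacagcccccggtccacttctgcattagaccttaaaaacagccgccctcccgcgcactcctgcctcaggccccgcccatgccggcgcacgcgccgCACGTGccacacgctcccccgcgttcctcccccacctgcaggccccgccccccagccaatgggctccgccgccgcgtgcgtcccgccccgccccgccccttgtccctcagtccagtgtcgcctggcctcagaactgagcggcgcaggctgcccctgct
Slc16a3: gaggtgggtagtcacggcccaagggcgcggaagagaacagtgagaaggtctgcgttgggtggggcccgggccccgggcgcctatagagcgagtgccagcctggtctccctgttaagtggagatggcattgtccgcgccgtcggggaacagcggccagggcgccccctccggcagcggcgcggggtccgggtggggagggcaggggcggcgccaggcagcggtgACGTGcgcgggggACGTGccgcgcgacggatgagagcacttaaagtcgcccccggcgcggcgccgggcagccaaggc
Among genes with a window, the letters stood in 11 of 14 listed genes that were higher (78.6%) and in 12 of 15 that were not (80.0%). The share was 21.8% of all 27025 genes, counting a match in any window of a gene. The match was therefore as common in the listed genes that did not pass the test, and it describes the list rather than the genes that differed.

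Interferon response genes were higher in Arg1 monocyte cells than in Arg1 macrophages. Their windows were searched for GAAA, any 2 bases and GAAA again (TTTC, any 2 bases and TTTC on the other strand), the letters of the interferon-stimulated response element. Capitals mark the matches in the antiviral enzyme viperin (Rsad2, chr12:26456403-26456702, minus strand), the ubiquitin-like protein Isg15 (chr4:156200769-156201068, minus strand) and the RNA-response protein Ifit3 (chr19:34583279-34583578, plus strand).
Rsad2: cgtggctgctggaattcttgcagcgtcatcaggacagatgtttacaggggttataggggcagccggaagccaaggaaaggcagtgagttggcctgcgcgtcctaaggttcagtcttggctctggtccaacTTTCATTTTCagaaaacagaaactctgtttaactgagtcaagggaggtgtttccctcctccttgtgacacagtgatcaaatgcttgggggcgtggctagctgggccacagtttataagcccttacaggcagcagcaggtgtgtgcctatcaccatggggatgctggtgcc
Isg15: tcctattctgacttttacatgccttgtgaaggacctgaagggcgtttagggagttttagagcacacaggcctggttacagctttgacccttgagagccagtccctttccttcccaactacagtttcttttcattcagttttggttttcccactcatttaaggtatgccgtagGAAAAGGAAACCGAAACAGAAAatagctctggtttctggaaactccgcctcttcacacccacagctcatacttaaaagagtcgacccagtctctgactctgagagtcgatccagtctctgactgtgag
Ifit3: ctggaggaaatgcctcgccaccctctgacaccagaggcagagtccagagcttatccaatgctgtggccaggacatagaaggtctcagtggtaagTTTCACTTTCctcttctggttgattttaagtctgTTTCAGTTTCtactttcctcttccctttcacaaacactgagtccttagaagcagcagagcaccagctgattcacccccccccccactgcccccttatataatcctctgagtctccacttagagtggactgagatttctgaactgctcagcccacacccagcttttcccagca
Among genes with a window, these letters stood in 10 of 18 interferon genes that were higher (55.6%), in 3 of 4 that were not (75%) and in 3.99% of all genes. A match is a description of letters, not a site or a cause.

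The genes of the rule came first, as a description without a test. Arg1 (chromosome 10, 24915221 to 24927484, minus strand) stood at 1756 and 1799 CPM (the gene's UMIs scaled by the summed UMIs of its group and library) in the Arg1 monocyte cells of replicates 1 and 2, and at 1809 and 2270 CPM in Arg1 macrophages. Its level in free RNA, read from barcodes under 100 UMIs, was 75.3 and 69.4 CPM. Single Arg1 monocyte cells held from 3 to 43 Arg1 UMIs in replicate 1, with a median of 6, and from 3 to 74 in replicate 2, with a median of 10. Both groups were chosen on Arg1, so their levels are set in part by the rule.

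Chil3, a chitinase-like secreted protein (chromosome 3, 106147554 to 106167564, minus strand), stood at 1909 and 2631 CPM, against 1522 and 2875 CPM in Arg1-zero monocytes. Plac8, a small cysteine-rich protein, stood at 253 and 731 CPM against 735 and 1715 CPM. Ly6c2, the surface antigen used to sort inflammatory monocytes, stood at 275 and 535 CPM against 376 and 740 CPM. Chil3 therefore carried most of the rule in both libraries, and Plac8 and Ly6c2 were below the Arg1-zero monocytes of the same library in each. Of the Arg1 monocyte cells of replicate 1, 97.0% held a Chil3 UMI, 37.3% Ly6c2 and 27.6% Plac8, and in replicate 2 the shares were 90.5, 60.8 and 52.5%. Cells rich in microglia genes, which should lack them, met the minimum of 5 UMIs over the 3 genes in 3.0 and 2.83% of cells, at median depths of 4081.5 and 5600 UMIs. Thbs1, named as a marker of these cells but not used in the rule (chromosome 2, 118111876 to 118127133, plus strand), stood at 3485 and 2906 CPM, against 1402 and 1473 in Arg1-zero monocytes, 1348 and 1546 in Arg1 macrophages and 238 and 197 in Arg1-zero macrophages. It was highest where monocyte transcripts and Arg1 came together, in both libraries, and free RNA held 234 and 265 CPM.

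**Figure D1:**
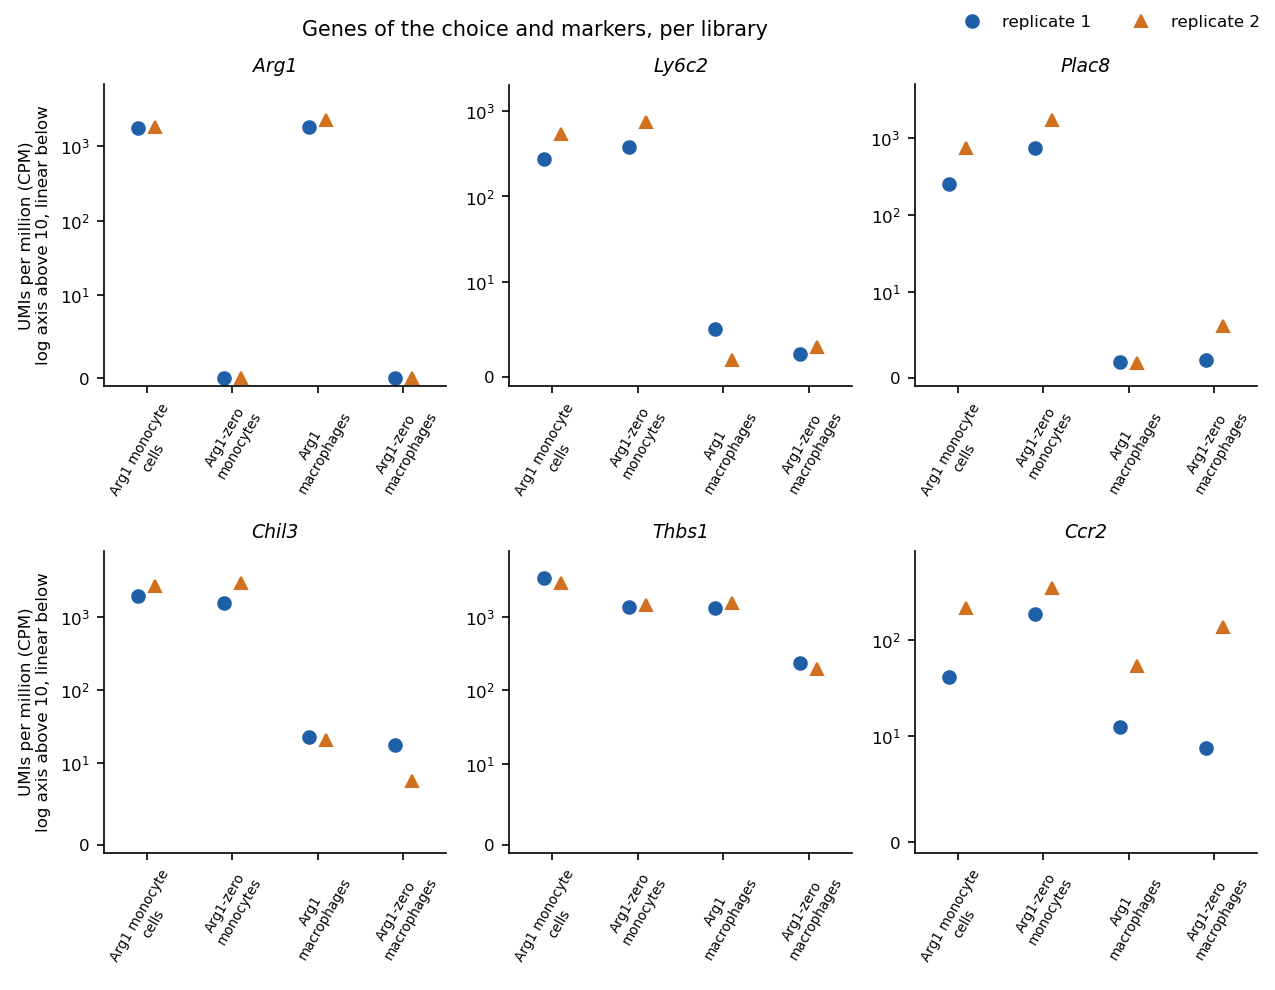
Levels in CPM (axis logarithmic above 10 and linear under it) of Arg1, Ly6c2, Plac8, Chil3, Thbs1 and Ccr2 in the 4 gated groups, with circles for replicate 1 and triangles for replicate 2. Thbs1 lay at 3485 and 2906 CPM in the Arg1 monocyte cells and at or under 1546 CPM in the other groups, and Arg1 is 0 by rule in both Arg1-zero groups.

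The rule's minimums cut through a continuous range. In replicate 1, the 22 cells with exactly 3 Arg1 UMIs held Hmox1 at 1885 CPM, and the 41 cells left out with 2 Arg1 UMIs held it at 4423 CPM. In replicate 2 the values were 1522 CPM in 13 cells inside and 8113 CPM in 25 cells outside. Cells with exactly 5 monocyte gene UMIs held Hmox1 at 7195 and 6595 CPM (23 and 7 cells), and those left out at 4 held 4961 and 8236 CPM (23 and 8 cells). At the Arg1 minimum the cells just outside thus carried more Hmox1 than those just inside in both libraries, and at the monocyte gene minimum the order differed between the libraries.

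**Figure D2:**
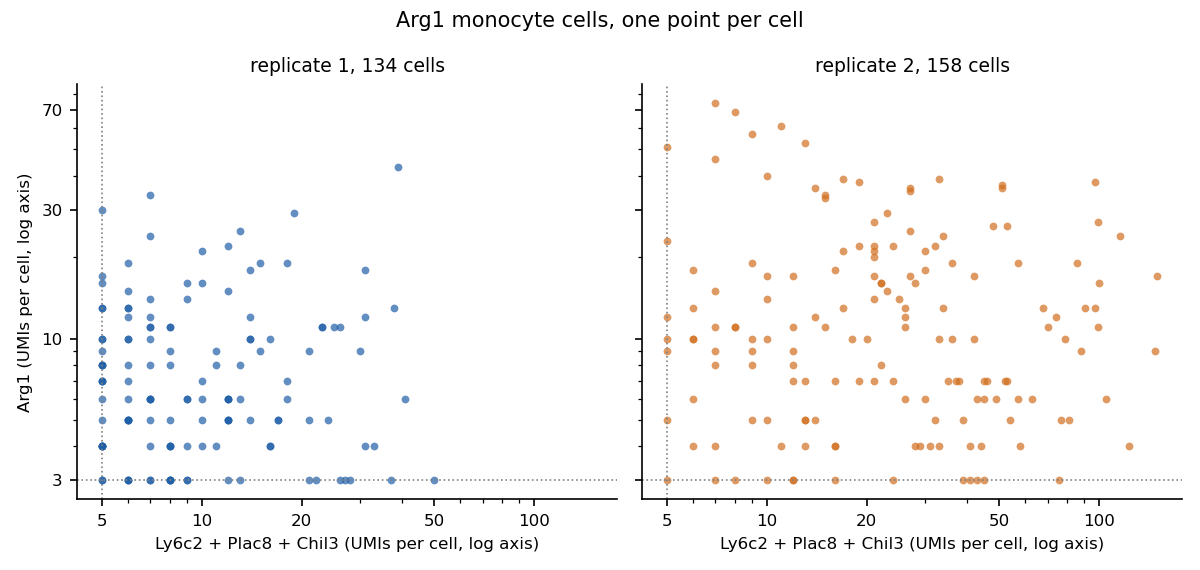
Arg1 UMIs (vertical axis) against the summed UMIs of Ly6c2, Plac8 and Chil3 (horizontal axis) in each Arg1 monocyte cell, on logarithmic axes, with a panel per library and dotted lines at the minimums of 3 and 5 UMIs. The medians of Arg1 are 6 and 10 UMIs, and the 158 cells of replicate 2 reach further above both minimums than the 134 of replicate 1.

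The Arg1 monocyte cells made up 0.890% of cells in replicate 1 (exact 95% interval 0.747 to 1.05%) and 2.0% in replicate 2 (1.70 to 2.33%). Of gated cells that met the monocyte gene minimum they were 20.5% (134 of 653) and 26.0% (158 of 608). Of gated cells that met the Arg1 minimum they were 25% (134 of 536) and 62.5% (158 of 253). The share among monocyte-gene cells was thus similar in the libraries, while the share among Arg1 cells was much higher in replicate 2, where gated macrophages were few. All intervals cover counting error only, and the sort, the UMI minimum and the greater depth of replicate 2 can set these shares. With every cell thinned to 3000 UMIs, leaving out shallower cells, the same minimums gave 0.424 and 1.24% of cells.

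Cells of other types were sought by markers outside the rule. The microglia list summed to 5662 and 4431 CPM in the Arg1 monocyte cells and to 54586 and 63367 CPM in cells gated as microglia, with no gene of its 15 at 0. Neutrophil markers summed to 238 and 381 CPM, against 214 and 425 CPM in Arg1-zero monocytes, with none of 14 at 0. Dendritic cell markers summed to 13.4 and 17.7 CPM, against 61.9 and 112 CPM in Arg1-zero monocytes, and 7 of 12 were at 0, Xcr1, Clec9a and Ccr7 among them. Lymphocyte markers summed to 7.45 and 13.1 CPM, with 12 of 16 at 0, Cd3e and Cd79a among them. Border-associated macrophage markers summed to 8295 and 2555 CPM, of which Pf4 alone gave 7409 and 1882 CPM. The same markers summed to 2033 and 900 CPM in Arg1-zero monocytes and to 6136 and 5199 CPM in Arg1 macrophages. Of the 10 markers, 9 were detected in the Arg1 monocyte cells, and Cd163 stood at 4.47 and 0.769 CPM. Lyve1, a defining marker of border-associated macrophages, was at 0, as it was in Arg1-zero monocytes and Arg1 macrophages. The part of border-associated macrophages was not tested. Vessel, neural and erythroid markers summed to 31.3 and 37.7 CPM, with 7 of 13 at 0. Scrublet marked 2 Arg1 monocyte cells as doublets in replicate 1, and 6 lay among the top-scoring cells of replicate 2.

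Against Arg1-zero monocytes, the Arg1 monocyte cells were higher in genes of glycolysis and hypoxia, heme breakdown, neutrophil-attracting chemokines and matrix, and lower in MHC class II, cell cycle and several monocyte genes. The question was what set these cells apart from monocytes of the same brains that lacked Arg1. UMIs were summed per group and library and tested with edgeR's quasi-likelihood test, with Benjamini-Hochberg adjustment over 8854 genes. Of these, 92 were higher (1.04%) and 96 were lower (1.08%) at an adjusted p of 0.05. All 188 called genes (2.12%) went the same way in replicates 1 and 2, which their selection on these libraries largely set. The median log2 fold change of all genes was -0.01.

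Glycolysis turns glucose into pyruvate and lactate, and its enzymes belong to the genes that hypoxia-inducible factors raise when oxygen is low. Of 31 tested genes of the glycolysis and hypoxia list, 14 were higher, against 1.04% of all genes, and none was lower (list median 0.78). Vegfa, the growth factor of blood vessels, stood at 225 and 328 CPM against 91.1 and 140 CPM. Both libraries of the Arg1 monocyte cells lay above both of the Arg1-zero monocytes, and the log2 fold change was 1.32 (SE 0.17, edgeR adjusted p = 0.000597). With 2 libraries per group such an order can arise by chance, and the share of all genes that show it was not counted. Here and below, a lack of overlap describes the values and is no separate support. Bnip3, which marks mitochondria for removal, stood at 78.9 and 104 CPM against 23.0 and 45.7 CPM, again without overlap (log2 1.47, SE 0.19, edgeR adjusted p = 0.000811). Hif1a itself, the oxygen-regulated subunit of the factor, was at 502 and 559 CPM against 267 and 348 CPM (log2 0.85, SE 0.16, edgeR adjusted p = 0.0137).

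The enzymes that were higher covered the middle and end of the pathway: Pfkl, Aldoa, Tpi1, Gapdh, Pgk1, Pgam1, Eno1 and Pkm, with log2 fold changes from 0.71 for Gapdh to 1.05 for Tpi1. The lactate exporter Slc16a3 (log2 0.71, edgeR adjusted p = 0.0468), the collagen-modifying enzyme P4ha1 (1.07, 0.0463) and the cytokine Mif (1.06, 0.0026) completed the 14. Slc2a1, the glucose transporter, was at 38.7 and 64.6 CPM against 25.4 and 35.3 CPM and did not pass (log2 0.83, SE 0.21, edgeR adjusted p = 0.0575). Lactate dehydrogenase Ldha was at 480 and 814 CPM against 328 and 545 CPM and did not pass either (log2 0.63, SE 0.17, edgeR adjusted p = 0.0805). Hk2, which phosphorylates glucose at the entry, stood at 89.4 and 102 CPM against 83.9 and 86.8 CPM (log2 0.24, SE 0.17, edgeR adjusted p = 0.592). Of 20 genes of the respiratory chain none passed in either direction, with a list median of 0.03. Hilpda, which coats lipid droplets under low oxygen and was counted with the lipid handling list, stood at 477 and 361 CPM against 134 and 111 CPM (log2 1.83, SE 0.18, edgeR adjusted p = 0.000111). Lpl, which frees fatty acids from lipoproteins, was lower at 127 and 36.9 CPM against 316 and 98.6 CPM (log2 -1.31, SE 0.22, edgeR adjusted p = 0.00486). Of 25 tested lipid genes, 22 did not pass.

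Hmox1, the heme oxygenase that opens the heme ring and releases iron (chromosome 8, 75093621 to 75100589, plus strand), stood at 6337 and 6920 CPM against 1775 and 2971 CPM in Arg1-zero monocytes. The groups did not overlap, and the log2 fold change was 1.58 (SE 0.18, edgeR adjusted p = 0.000339). Free RNA held 1151 and 911 CPM of Hmox1. Single Arg1 monocyte cells ranged from 0 to 164 Hmox1 UMIs in replicate 1, with a median of 12, and from 0 to 700 in replicate 2, with a median of 14. Slc48a1, which carries heme out of the lysosome, was at 225 and 188 CPM against 135 and 85.7 CPM (log2 1.0, SE 0.17, edgeR adjusted p = 0.00555). The ferritin light chain Ftl1 was higher by 0.79 (SE 0.19, edgeR adjusted p = 0.0443). The heavy chain Fth1, at 50256 and 54136 CPM against 32991 and 36230 CPM, did not pass (log2 0.66, SE 0.18, edgeR adjusted p = 0.0845). Hp, the plasma scavenger of hemoglobin that monocytes also store, went the other way, at 59.6 and 140 CPM against 127 and 373 CPM (log2 -1.20, SE 0.23, edgeR adjusted p = 0.0133). Of 22 tested genes of the heme, iron and oxidative stress list, 3 were higher and Hp alone was lower, with a list median of 0.38.

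Chemokines draw other leukocytes along a gradient, and those of the CXC class with a Glu-Leu-Arg motif draw neutrophils. Of 19 tested chemokine genes, 9 were higher and 1 was lower (list median 0.73). Cxcl3 (chromosome 5, 90786103 to 90789600, plus strand) stood at 605 and 1004 CPM against 71.0 and 185 CPM, which is 2.85 on the log2 scale (SE 0.56, edgeR adjusted p = 0.0146). Cxcl1 was at 189 and 176 CPM against 35.5 and 48.6 CPM (log2 2.18, SE 0.23, edgeR adjusted p = 0.000234). Cxcl2 was at 4523 and 8409 CPM against 2165 and 3946 CPM (log2 1.14, SE 0.15, edgeR adjusted p = 0.00112). In Cxcl1, Cxcl2 and Cxcl3 both libraries of the Arg1 monocyte cells lay above both of the Arg1-zero monocytes.

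Platelet factor 4, Pf4 (chromosome 5, 90772435 to 90773383, plus strand), is a heparin-binding chemokine best known from platelets and also made by macrophages. It stood at 7409 and 1882 CPM against 1275 and 368 CPM, which is 2.53 on the log2 scale (SE 0.31, edgeR adjusted p = 0.000482), and free RNA held 734 and 386 CPM. Replicate 1 was the higher library in both groups, and even so both libraries of the Arg1 monocyte cells lay above both of the Arg1-zero monocytes. Ppbp, the precursor of another platelet chemokine and the neighbour of Pf4 (chromosome 5, 90768518 to 90770063, plus strand), gave 74 UMIs in all Arg1 monocyte cells and 6 in Arg1-zero monocytes (log2 5.03, SE 0.92, edgeR adjusted p = 0.0105). The monocyte attractants Ccl2 and Ccl7 were at 2597 and 5196 and at 1366 and 2002 CPM, with log2 fold changes of 0.88 (edgeR adjusted p = 0.0277) and 1.18 (0.00349). Ccl6 and Cxcl14 were the other chemokines that were higher. Ccl8 was lower, with 1 UMI in the Arg1 monocyte cells and 87 in Arg1-zero monocytes (edgeR adjusted p = 0.0201).

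The list of matrix, vessel growth and clotting genes had 7 of 28 tested genes higher and none lower (median 0.67). Ecm1, a secreted matrix protein, was at 640 and 498 CPM against 214 and 193 CPM (log2 1.53, SE 0.17, edgeR adjusted p = 0.000263). Timp1, the inhibitor of matrix metalloproteinases, was at 68.5 and 96.1 CPM against 19.7 and 53.6 CPM (log2 1.24, SE 0.23, edgeR adjusted p = 0.0125). Both libraries of the Arg1 monocyte cells lay above both of the Arg1-zero monocytes in each. Among the other 5 were the membrane protease Mmp14 (log2 1.21), the crosslinking enzyme Tgm2 (0.97), fibronectin Fn1 (0.72) and coagulation factor F10 (0.64).

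**Figure D3:**
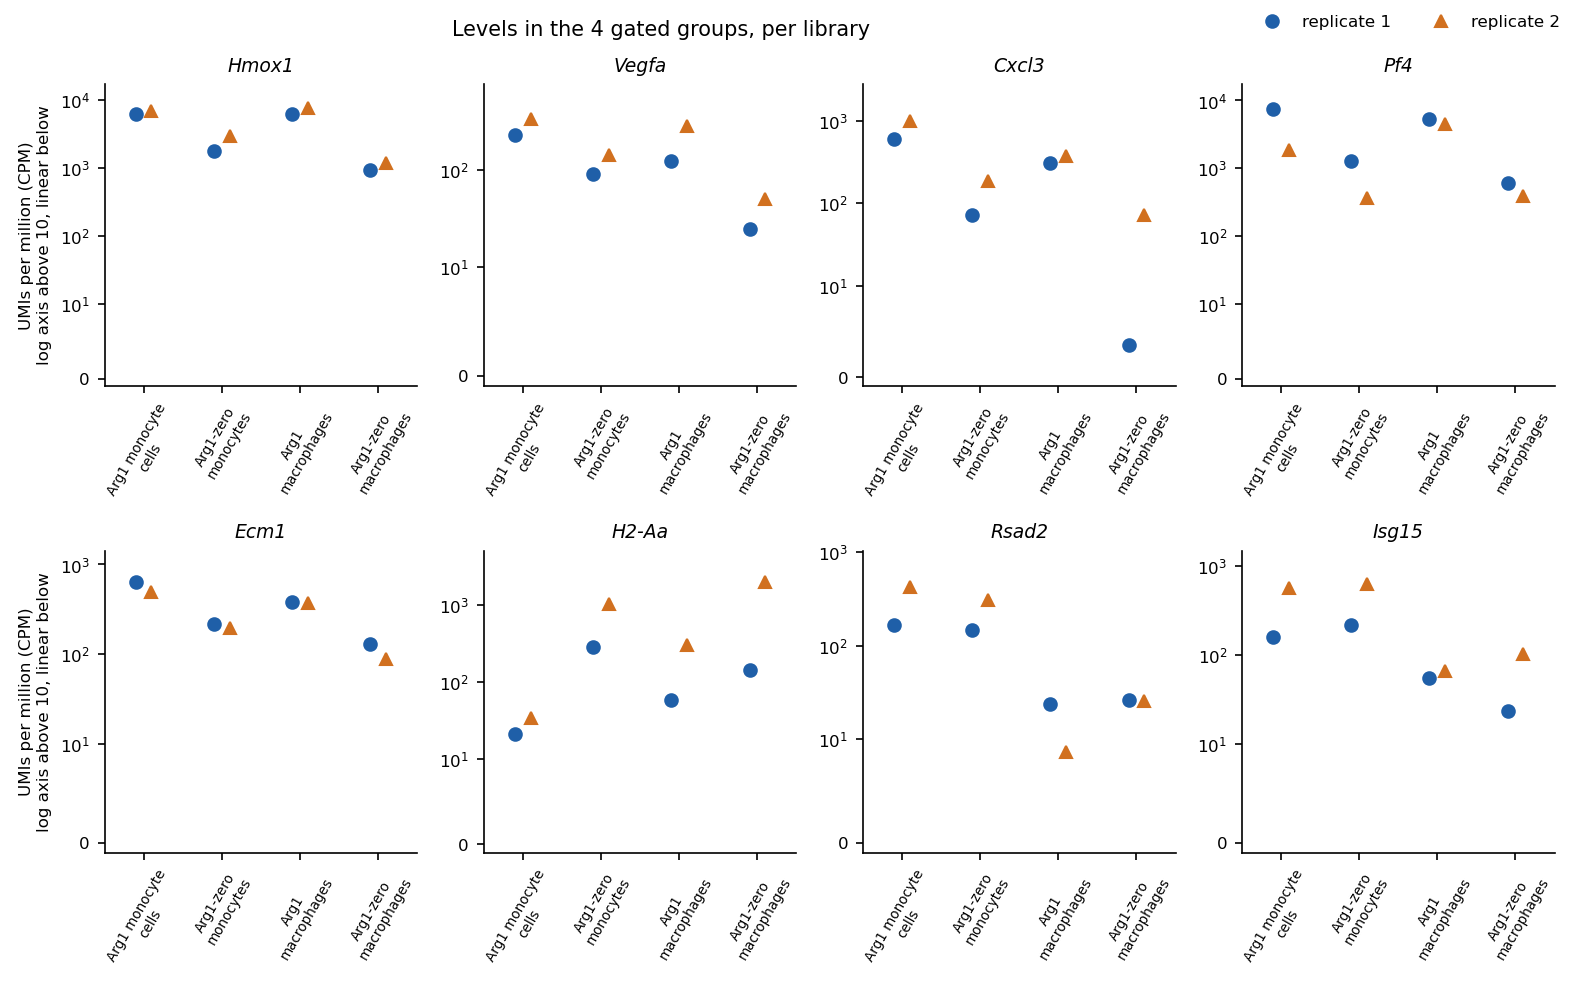
Levels in CPM (axis logarithmic above 10 and linear under it) of Hmox1, Vegfa, Cxcl3, Pf4, Ecm1, H2-Aa, Rsad2 and Isg15 in the 4 gated groups, with circles for replicate 1 and triangles for replicate 2. Hmox1 is about level between Arg1 monocyte cells (6337 and 6920 CPM) and Arg1 macrophages (6281 and 7722 CPM), while Rsad2 is about level between Arg1 monocyte cells (165 and 421 CPM) and Arg1-zero monocytes (148 and 308 CPM).

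Of 32 tested monocyte identity genes outside the rule, 8 were lower (1.08% of all genes were lower) and 1, Fn1, was higher (list median -0.35). Ifitm6, an interferon-induced membrane protein of myeloid cells, stood at 22.3 and 59.2 CPM against 129 and 284 CPM (log2 -2.32, SE 0.30, edgeR adjusted p = 0.000826). The transcription factor gene Cebpd was lower by the same test (log2 -1.44, edgeR adjusted p = 0.0187), as were the integrin chains Itga4 (-1.27, 0.036) and Itgal (-1.23, 0.0208). Ccr2, the receptor for Ccl2 with which monocytes leave the marrow, was at 41.7 and 218 CPM against 188 and 355 CPM and did not pass (log2 -1.43, SE 0.46, edgeR adjusted p = 0.153). Its groups overlapped, since replicate 2 of the Arg1 monocyte cells lay above replicate 1 of the Arg1-zero monocytes. Of 26 tested genes of macrophage maturation, 3 were higher and none lower (median 0.39), among them Pf4 and the lysosomal protease Lgmn (log2 0.83, SE 0.16, edgeR adjusted p = 0.0137). C1qa, which builds the recognition molecule of complement, was at 2697 and 1371 CPM against 1785 and 863 CPM (log2 0.69, SE 0.20, edgeR adjusted p = 0.0889). Free RNA of each library held more C1qa than either group, and its part was not tested. The lipid carrier Apoe was at 48530 and 27314 CPM against 54834 and 23431 CPM (log2 0.07, SE 0.21, edgeR adjusted p = 0.929).

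MHC class II molecules show antigen to helper T cells and are plentiful on dendritic cells. Of 17 tested antigen presentation genes, 7 were lower and none was higher, with a list median of -0.80. H2-Aa (chromosome 17, 34282744 to 34287823, minus strand) stood at 20.8 and 33.8 CPM against 283 and 1021 CPM (log2 -4.77, SE 0.48, edgeR adjusted p = 0.000161). H2-Eb1 stood at 8.94 and 16.1 CPM against 376 and 1099 CPM (log2 -6.21, SE 0.54, edgeR adjusted p = 0.000104). The Arg1 monocyte cells held less of both than free RNA did (60.1 and 258 CPM of H2-Aa). Ciita, the master switch of these genes, had 0 UMIs in the Arg1 monocyte cells and 54 in Arg1-zero monocytes. Against a floor of 3 counts over the group this is at least 7.30-fold lower. The bound takes UMIs as independent, although they can come from few cells. Class I genes and B2m did not pass.

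Of 20 tested cell cycle genes, 9 were lower and none higher (median -1.94). Ube2c, which drives exit from mitosis, gave 3 UMIs in the Arg1 monocyte cells and 351 in Arg1-zero monocytes (edgeR adjusted p = 0.000293). Ccnb1, the mitotic cyclin, gave 0 and 85 UMIs, at least 11.5-fold lower by the same bound on UMIs. The tubulin regulator Stmn1 was at 20.8 and 23.1 CPM against 112 and 53.6 CPM (log2 -1.71, SE 0.42, edgeR adjusted p = 0.0463). Both list medians were the same with genes at 0 UMIs held at their bound.

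Few cells held these transcripts. Cells with at least 2 class II UMIs made up 3.73 and 7.59% of the Arg1 monocyte cells, 12.2 and 17.3% of the Arg1-zero monocytes, and 3.58 and 3.75% of cells gated as microglia, whose median UMIs were 3844 and 5366.5. Cells with a UMI of Mki67, Top2a, Birc5 or Ube2c made up 4.48 and 5.70% of the Arg1 monocyte cells and 9.15 and 8.89% of the Arg1-zero monocytes. When both kinds of cell were left out of every group, a choice made after seeing the data, edgeR called 38 genes higher and 40 lower of 7843 tested. Antigen presentation genes then passed in 0 of 12 tested (median -0.41) and cell cycle genes in 0 of 7 (median -0.03). Cells were left out by genes of these same lists, so the loss of these calls follows in part from the choice itself. No conclusion is drawn from that loss. In the same fit 7 of 30 glycolysis and hypoxia genes were higher (median 0.67), where 14 of 31 were with all cells. Chemokines were higher in 8 of 18 cases (median 0.95) and lower in 1, and matrix genes were higher in 2 of 28 (median 0.38) and lower in 1, where 7 of 28 were higher with all cells. Of 32 monocyte identity genes 7 were lower. Hmox1 kept a log2 fold change of 1.27 (edgeR adjusted p = 0.0025), Vegfa 1.06 (0.00604) and Pf4 3.12 (0.000155), while Cxcl3 stood at 2.43 and no longer passed (0.0889).

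Other lists differed less between Arg1 monocyte cells and Arg1-zero monocytes. Of 15 tested genes of arginine and polyamine metabolism, only Arg2, the mitochondrial arginase, passed, at 64.0 and 55.4 CPM against 23.0 and 29.5 CPM (log2 1.21, SE 0.24, edgeR adjusted p = 0.0146). Odc1, which turns ornithine into the polyamine putrescine, stood at 53.6 and 62.3 CPM against 69.5 and 79.6 CPM (log2 -0.29, SE 0.19, edgeR adjusted p = 0.544). Nos2, the inducible nitric oxide synthase, gave 0 and 0.769 CPM, and Retnla, a common companion of Arg1 in alternatively activated macrophages, gave 0 UMIs in the Arg1 monocyte cells of both libraries. Of 19 tested genes of alternative activation, the interleukin 4 receptor chain Il4ra was higher (log2 0.81, SE 0.16, edgeR adjusted p = 0.0152) and the ribonuclease Ear2 lower (-2.30, SE 0.47, 0.0179). Of 24 inflammatory mediators, 3 were higher, the lectin Clec4n (log2 1.10, edgeR adjusted p = 0.012), the prostaglandin synthase Ptgs2 (0.95, 0.0133) and the endotoxin co-receptor Cd14 (0.64, 0.029). Il1b stood at 496 and 2003 CPM against 826 and 2136 CPM and did not pass (log2 -0.43, SE 0.33, edgeR adjusted p = 0.641). None of 29 interferon response genes and none of 12 complement genes passed, with medians of -0.21 and 0.40. Of 19 immediate early genes, Rgs1 (log2 0.84) and Ier3 (0.62) were higher and Dusp2 (-0.90) was lower, and of 15 stress genes the chaperone Hspa1b was lower (log2 -1.96, edgeR adjusted p = 0.00372; reads shared with the near-identical Hspa1a make it uncertain).

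Outside the lists, podoplanin (Pdpn), a surface mucin that binds the platelet receptor Clec2, was at 137 and 143 CPM against 11.5 and 37.1 CPM (log2 2.56, SE 0.27, edgeR adjusted p = 0.00018). Rgcc, a regulator of cell cycle kinases first described as a complement response gene, was at 204 and 215 CPM against 36.9 and 65.9 CPM (log2 2.09, SE 0.20, edgeR adjusted p = 0.000111). Rnf128 (log2 1.96), Emp1 (1.36) and Slc27a1 (1.27) were the next by size. In the other direction stood the histone gene Hist1h2ap (log2 -2.37), Rassf4 (-1.88), the kinase partner Cks2 (-1.84), the cyclin Ccnd3 (-1.79) and the inhibitory lectin Clec12a (-1.72). The cell surface enzyme Cd38, listed as a marker of border-associated macrophages, was at 136 and 43.1 CPM against 61.4 and 16.2 CPM (log2 1.29, SE 0.25, edgeR adjusted p = 0.0143). With Pf4 it made 2 of 9 tested markers of those cells that were higher, and their part was not tested. Among the cells with 5000 to 20000 UMIs alone, Pdpn kept a log2 fold change of 1.96 (edgeR adjusted p = 0.0184) and Hmox1 one of 1.58 (0.0383), but only 7 genes were higher and 9 lower in all, with glycolysis and hypoxia genes at a median of 0.81 and 1 of 31 past the threshold. Without the library as a block in the fit, edgeR called 0 genes, while 273 higher and 347 lower genes had an unadjusted p under 0.05.

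**Figure D4:**
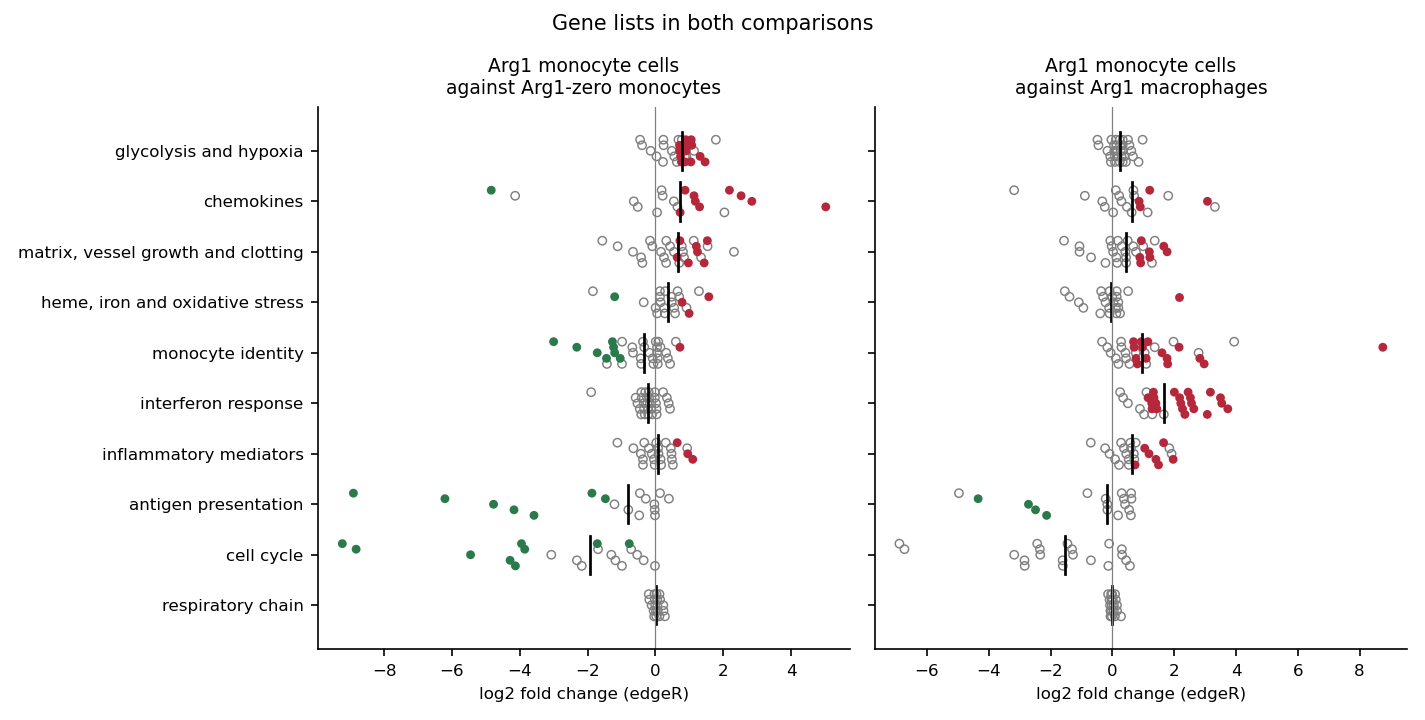
Log2 fold changes (horizontal axis) of the tested genes of 10 lists in Arg1 monocyte cells against Arg1-zero monocytes and against Arg1 macrophages, with filled red points higher and filled green points lower at an adjusted p of 0.05, open grey points for the rest and a black bar at the list median. Glycolysis and hypoxia genes pass against the monocytes (14 of 31) and not against the macrophages (0 of 31), and interferon response genes the reverse (0 of 29 and 21 of 29); Ciita, Ccnb1 and Ccna2 in the first panel and 1 monocyte identity gene in the second lie outermost because one group holds 0 UMIs, and their place is no measure of size.

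For the word transitional, given with these cells, their place was described over 580 genes that differed between Arg1-zero monocytes and Arg1 macrophages in the same fit. On the log2 scale, the Arg1 monocyte cells lay at a median of 44.4% of the way from the monocytes to the macrophages. The quartiles were 17.7 and 78.2%. Not all genes lay in between, since 57 lay beyond the monocytes and 78 beyond the macrophages. For the 172 genes higher in macrophages the median was 70.6%, and for the 408 genes higher in monocytes it was 35.1%. Replicate 1 alone gave 55.7% for all genes and replicate 2 alone 38.5%. The macrophage-high genes lay past the midpoint in both libraries, at 74.1 and 63.6%. The monocyte-high genes lay at 49.8% in replicate 1 and 29.1% in replicate 2, so that their place nearer to monocytes rests on replicate 2. The genes were chosen for lying far apart between these same end groups, and the monocyte sums enter both sides of the ratio. Both tend to place any other group in between, so the medians are no check of the word. The groups were also drawn by related gates, so this is a description, and no measurement here followed cells over time.

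Against Arg1 macrophages, which share Arg1 but lack the monocyte transcripts, the Arg1 monocyte cells were higher in interferon response, monocyte and inflammatory genes and lower in MHC class II genes. Hmox1 and the glycolysis genes gave no call. Of 8854 genes, 114 were higher (1.29%) and 10 lower (0.113%) by edgeR's quasi-likelihood test. In replicates 1 and 2, 122 of the 124 called genes (1.4%) went the same way, which their selection largely set. Arg1 macrophages of replicate 2 numbered only 60 cells. Both comparisons use the same Arg1 monocyte cells, so their values are given side by side and not correlated.

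Type I interferons switch on a set of antiviral genes. Of 29 tested interferon response genes, 21 were higher, against 1.29% of all genes, and none was lower. The list median was 1.66, with 0.93 in replicate 1 and 2.67 in replicate 2. Rsad2 (chromosome 12, 26442746 to 26456452, minus strand) stood at 165 and 421 CPM against 23.5 and 8.72 CPM, which is 3.74 on the log2 scale (SE 0.41, edgeR adjusted p = 0.000207). Isg15 stood at 156 and 558 CPM against 54.9 and 66.3 CPM (log2 2.21, SE 0.29, edgeR adjusted p = 0.00122). Irf7, the factor that amplifies interferon production, stood at 168 and 487 CPM against 59.1 and 81.9 CPM (log2 2.0, SE 0.26, edgeR adjusted p = 0.00119). In all 3 both libraries of the Arg1 monocyte cells lay above both of the Arg1 macrophages. The DNA sensor family gene Ifi205 (log2 3.5, edgeR adjusted p = 0.000245), Slfn4 (3.17, 2.46e-05) and Ifit3 (3.07, 0.000877) had the next largest changes among those named, and reads shared within the Ifit and Slfn families make single members uncertain. Ifit2 was the exception in sign, at 5.96 and 83.1 CPM against 6.46 and 3.49 CPM, so its call rests on replicate 2 (log2 -0.08 and 4.51 in replicates 1 and 2). In Arg1-zero monocytes Rsad2 stood at 148 and 308 CPM and Isg15 at 213 and 618 CPM, and neither passed the test between those and the Arg1 monocyte cells (edgeR adjusted p = 0.583 and 0.797).

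Single cells were uneven in these genes. Rsad2 ranged from 0 to 28 UMIs a cell in replicate 1 and from 0 to 54 in replicate 2, with a median of 0 in both. Isg15 ranged from 0 to 11 UMIs with a median of 0 in replicate 1, and from 0 to 40 with a median of 1 in replicate 2. The summed level of both genes therefore came from part of the cells, and the part of the difference in depth between the libraries was not tested.

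Outside the interferon list, Ifitm1 (log2 2.97, edgeR adjusted p = 0.0266), Ifi203 (2.08, 0.00962), Ifi209 (1.96, 0.0076) and Slfn1 (1.98, 0.0394) were higher too, names that belong to interferon-induced families. Cxcl10, an interferon-induced attractant of T cells, stood at 201 and 451 CPM against 30.9 and 41.8 CPM (log2 3.08, SE 0.24, edgeR adjusted p = 2.18e-05). Free RNA held 154 and 257 CPM of Cxcl10, and cells gated as microglia 297 and 257 CPM. Ccl2 stood at 2597 and 5196 CPM against 1398 and 2061 CPM (log2 1.21, SE 0.19, edgeR adjusted p = 0.00597). Cxcl2 and Ccl7 made up the other 2 of 4 chemokines that were higher among 19 tested (median 0.62), and Pf4, at 7409 and 1882 CPM against 5365 and 4427 CPM, did not pass (log2 -0.33, SE 0.29, edgeR adjusted p = 0.744).

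Of 32 monocyte identity genes, 15 were higher and none lower (median 0.96). The groups were set apart by Ly6c2, Plac8 and Chil3, so higher levels of other monocyte genes follow in part from the rule. Ms4a4c, a membrane protein of the CD20 family, was at 156 and 535 CPM against 25.4 and 68.0 CPM (log2 2.83, SE 0.28, edgeR adjusted p = 0.000108). Hp was at 59.6 and 140 CPM against 18.9 and 17.4 CPM (log2 2.16, SE 0.32, edgeR adjusted p = 0.00322). Ccr2 was at 41.7 and 218 CPM against 12.5 and 54.0 CPM and did not pass (log2 1.98, SE 0.59, edgeR adjusted p = 0.14). Of the genes lower than in Arg1-zero monocytes, Ifitm6, Hp and Itgal were thus higher than in Arg1 macrophages.

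Of 24 inflammatory mediators, 7 were higher (median 0.65). Il1b, the fever cytokine released through inflammasomes, was at 496 and 2003 CPM against 110 and 642 CPM (log2 1.97, SE 0.35, edgeR adjusted p = 0.0119). Within each library it was higher in the Arg1 monocyte cells, although replicate 1 of these cells lay under replicate 2 of the Arg1 macrophages. Ptgs2 (log2 1.49, edgeR adjusted p = 0.0021), the cytokine oncostatin M gene Osm (1.18, 0.00649), Il18 (1.41), the inflammasome sensor Nlrp3 (1.05, 0.0302), the activating receptor Trem1 (1.66, 0.00612) and Cd14 (0.73) were the other 6. Il1rn, the natural blocker of the interleukin 1 receptor, was also higher, at 101 and 265 CPM against 25.9 and 36.6 CPM (log2 2.35, SE 0.25, edgeR adjusted p = 0.000207). Slpi, an inhibitor of neutrophil proteases, was at 401 and 1002 CPM against 64.6 and 90.7 CPM (log2 3.07, SE 0.28, edgeR adjusted p = 7.16e-05). Mxd1, listed as a neutrophil marker, was at 67.0 and 173 CPM against 19.9 and 41.8 CPM (log2 2.04, edgeR adjusted p = 0.000179), where the neutrophil list as a whole summed to 238 and 381 CPM against 102 and 101 CPM; the part of neutrophil RNA was not tested.

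Matrix, vessel growth and clotting genes were higher in 7 of 28 cases (median 0.44), led by the proteoglycan Vcan (log2 1.77, edgeR adjusted p = 0.0153) and by Timp1 (1.66, 0.00649) with 68.5 and 96.1 CPM against 21.7 and 27.9 CPM. Cd44, the hyaluronan receptor, was at 246 and 408 CPM against 151 and 138 CPM (log2 1.21, SE 0.22, edgeR adjusted p = 0.0125). In the arginine list Ass1, which remakes arginine from citrulline, was at 17.9 and 94.6 CPM against 9.23 and 8.72 CPM (log2 2.03, SE 0.46, edgeR adjusted p = 0.0429), and the polyamine oxidase Smox was higher by 0.99 (SE 0.21, 0.0325). The immediate early gene Nr4a1, an orphan nuclear receptor, was at 162 and 268 CPM against 49.4 and 105 CPM (log2 1.60, SE 0.17, edgeR adjusted p = 0.000186). Ier3 was among the other 3 of 4 such genes that were higher among 19 tested. The actin-linked giant protein Ahnak was higher by 0.89 (SE 0.17, edgeR adjusted p = 0.0153).

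Several lists that separated the Arg1 monocyte cells from Arg1-zero monocytes gave no call here. Hmox1 was at 6337 and 6920 CPM against 6281 and 7722 CPM (log2 -0.00, SE 0.18, edgeR adjusted p = 1). Vegfa, Bnip3 and Hilpda stood at log2 fold changes of 0.61, 0.39 and -0.41 (edgeR adjusted p = 0.101, 0.462 and 0.343), and 0 of 31 glycolysis and hypoxia genes passed (median 0.24). None of 26 macrophage maturation genes passed (median -0.12), with C1qa at 2697 and 1371 CPM against 3772 and 3103 CPM (log2 -0.76, SE 0.20, edgeR adjusted p = 0.0777). These C1qa levels too lay under that of free RNA in each library. A p that misses the threshold does not show that the groups were alike.

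The 10 lower genes included 4 of 17 antigen presentation genes (median -0.16), against 0.113% of all genes. H2-Eb1 was at 8.94 and 16.1 CPM against 84.5 and 396 CPM (log2 -4.35, SE 0.57, edgeR adjusted p = 0.00119) and H2-Aa at 20.8 and 33.8 CPM against 57.3 and 302 CPM (log2 -2.72, SE 0.50, edgeR adjusted p = 0.0148). With cells of class II or cycling transcripts left out of every group, the median log2 fold change of 12 antigen presentation genes was 0.38. That of 28 interferon genes was 1.83, and that of all 7843 genes tested was -0.005. Cells with class II transcripts were left out by genes of the antigen presentation list, so its change follows in part from the choice. Outside the lists, the protease inhibitor Serpinb6a (log2 -1.53, edgeR adjusted p = 0.0234), the mitochondrial protein Chchd10 (-1.44, 0.00649), the peroxide-splitting enzyme Cat (-1.11, 0.0377) and the electron carrier Cyb5a (-0.71, 0.0245) were lower. Among cells with 5000 to 20000 UMIs only 6 genes were higher and 1 lower, with Ms4a4c at 2.74 (edgeR adjusted p = 0.00216), Il1b at 1.96 (0.0125) and Rsad2 at 3.23 without a call (0.16). Without the library block edgeR called 0 genes, while 396 higher and 264 lower genes had an unadjusted p under 0.05.

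The Arg1 monocyte cells also differed among themselves. Each library's cells were split at its median Arg1 level, 15.4 and 13.8 UMIs per 10000, into 67 and 67 cells in replicate 1 and 79 and 79 in replicate 2. Cells with more Arg1 held more transcripts of 11 chemokines and less of the 3 chains of complement C1q. Of 4559 tested genes, 22 were higher (0.483%) and 11 lower (0.241%) in the cells with more Arg1 by edgeR's quasi-likelihood test. All 33 (0.724%) went the same way in replicates 1 and 2, which their selection largely set. Median UMIs were 3589 and 7221 in the cells with more Arg1 and 4589 and 7530 in those with less Arg1, and the part of depth was not tested.

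Of 17 tested chemokines, 11 were higher in cells with more Arg1 and none was lower (median 1.02). Cxcl3 stood at 1144 and 1697 CPM against 255 and 374 CPM, without overlap (log2 2.19, SE 0.12, edgeR adjusted p = 1.85e-06). Cxcl2 stood at 6631 and 11269 CPM against 3158 and 5808 CPM (log2 1.02, SE 0.08, edgeR adjusted p = 4.57e-05). Pf4 stood at 11175 and 2953 CPM against 4971 and 907 CPM, higher within each library and overlapping across them (log2 1.43, SE 0.13, edgeR adjusted p = 9.55e-05). Ccl24, an eosinophil attractant of alternatively activated macrophages (chromosome 5, 135569937 to 135573049, minus strand), gave 117 UMIs against 15 (log2 3.30, SE 0.31, edgeR adjusted p = 0.00014). Ppbp gave 68 UMIs against 6 (log2 3.84, SE 0.43, edgeR adjusted p = 0.000517). Ppbp, Pf4 and Cxcl3 lie side by side on chromosome 5, from 90768518 to 90789600, on the same strand. The others that were higher were Cxcl1, Cxcl10, Ccl2, Ccl6, Ccl7 and Ccl9, with log2 fold changes from 0.63 for Ccl2 to 1.32 for Cxcl10.

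Other genes that were higher with Arg1 were the clotting factor F13a1 (493 and 489 CPM against 221 and 291 CPM, log2 0.93, edgeR adjusted p = 0.012), Ptgs2 (1.16, 0.0251), the glycolytic Pgk1 (0.70, 0.0419) and the metal-binding Mt2 (2.23, 0.0367) and Mt1 (0.73, 0.0157). Dennd5b (1.22, 0.0298), Ifitm1 (1.19, 0.00948) and Rgcc (1.04, 0.0186) were higher as well. F13a1 and Pf4 are also markers of border-associated macrophages, of which 2 of 5 tested were higher (list medians 0.53 and 0.55 in replicates 1 and 2), and the part of those cells was not tested. Of 26 glycolysis and hypoxia genes Pgk1 alone passed, with a list median of 0.45. Hmox1 was at 7901 and 6416 CPM against 5324 and 7379 CPM, higher in replicate 1 and lower in replicate 2 (log2 0.18, SE 0.13, edgeR adjusted p = 0.778).

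Of 9 tested complement genes, 3 were lower in cells with more Arg1 and none was higher, and the list stood at a median of 0.02, or -0.61 and 0.11 by library. The 3 were the chains of C1q. C1qa stood at 1508 and 877 CPM in cells with more Arg1 and at 3467 and 1821 CPM in those with less (log2 -1.12, SE 0.11, edgeR adjusted p = 0.00014). C1qc (log2 -0.94, edgeR adjusted p = 0.000689) and C1qb (-0.66, 0.0044) followed. Apoe (-0.56, 0.000703), the phosphoprotein Spp1 (-0.74, 0.000369), the metalloproteinase inhibitor Timp2 (-1.39, 0.0035) and the stress cytokine Gdf15 (-1.63, 0.00145) were lower too. So were H2-Ab1 (-1.65, 0.0387), Cd74 (-1.16, 0.0186) and Ddx19a, with 2 UMIs against 32 (0.0387). Apoe and C1q are also abundant in microglia, and free RNA held 5594 and 8038 CPM of C1qa; their part in this difference was not tested. With doublet-marked or top-scored cells removed, 6 genes were higher, all of them chemokines, and 1 was lower, while C1qa (log2 -0.97, edgeR adjusted p = 0.0535) and Apoe (-0.58, 0.0581) no longer passed. Without the library block Ccl24 alone passed (edgeR adjusted p = 0.0394).

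**Figure D5:**
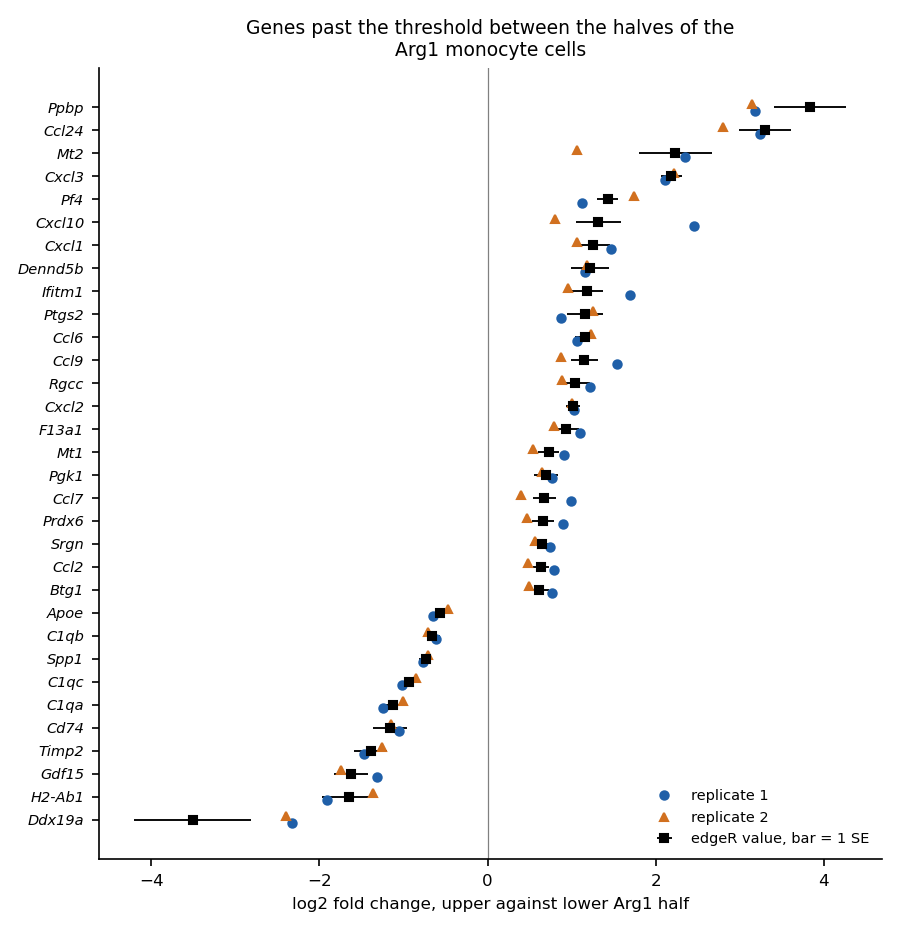
Log2 fold changes (horizontal axis) of 32 of the 33 genes past an adjusted p of 0.05 between Arg1 monocyte cells with more and with less Arg1, with black squares and bars for the edgeR value and 1 SE, circles for replicate 1 and triangles for replicate 2. The 22 genes on the right include 11 chemokines, and the 3 C1q genes lie on the left in both libraries.

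The libraries themselves differed within the Arg1 monocyte cells, which with 1 sum per library is a description without a test. Replicate 2 held more Ccr2 (218 against 41.7 CPM, 5.22-fold), Il1b (2003 against 496 CPM, 4.04-fold), Isg15 (558 against 156 CPM, 3.57-fold), Plac8 (2.89-fold) and Rsad2 (2.54-fold). Replicate 1 held more Pf4 (7409 against 1882 CPM, 3.94-fold), the engulfment receptor Mertk (77.4 against 20.8 CPM, 3.73-fold) and C1qa (2697 against 1371 CPM, 1.97-fold). These genes were chosen after their values were seen and stand for no list. Arg1 (1756 and 1799 CPM), Hmox1 (6337 and 6920 CPM) and Thbs1 (3485 and 2906 CPM) were close between the libraries. With every cell thinned to 3000 UMIs, 9.09% of 99 cells in replicate 1 and 41.3% of 155 in replicate 2 held a Ccr2 UMI (15.7 and 56.3% before thinning), and 79.8 and 43.9% held Pf4 (74.6 and 50% before). The difference between the libraries in both genes was thus also seen in the thinned cells. These cells were chosen at full depth, which differed between the libraries. Thinning also left out 35 cells of replicate 1 and 3 of replicate 2, so the part of depth in the choice of cells was not tested. Arg1-zero macrophages held a Ccr2 UMI in 1.76 and 17.9% of thinned cells, so Ccr2 was lower in replicate 1 there too.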

How the data were processed

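Values are raw counts of UMIs for each gene and barcode as the authors deposited them, with every barcode listed and Cell Ranger named per the file headers. Per the submitters' processing notes, the tools were Cell Ranger 4.0.0, STAR 2.5.1b and Seurat 4. These notes list the builds mm10, GRCm38 and GRCh38. What GRCh38 was for, and how reads shared by near-identical genes were counted, is not given in the sources used. Gene coordinates are 1-based, from the GENCODE annotation of GRCm38, which held 99.6% of 31053 gene IDs. Promoter windows of 27025 genes came from RefSeq and were matched by symbol.

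Barcodes counted as cells from 1000 UMIs and 500 genes upward, with up to 10% mitochondrial UMIs. Raw counts were summed per gated group and library, and CPM refers to all UMIs of a sum. The 4 gated groups in both libraries (8 sums) entered 1 fit in edgeR 4.0.16 (R 4.3.3) with TMM scaling, filterByExpr, the quasi-likelihood test and Benjamini-Hochberg adjustment (threshold 0.05), with the library as a block. This left 3 residual degrees of freedom, and 1 in the fit of cells with more against less Arg1. The pairing comes from the shared library, and the libraries' deviations from group means correlated across 8882 genes with r = 0.329, 0.108 and 0.217 between the groups. Genes of the gates, mitochondrial genes and Thbs1 were fitted but not tested. Genes were named by a rule: in each list up to 2 with the largest log2 fold change among those past the threshold, of the same sign in both libraries and with at least 50 CPM in the higher group, and outside the lists the 5 largest in each direction. Other genes of a list were named when it was described, after their values were seen. A few genes counted in the lists are not reported here by name. The cells and gene lists were chosen with earlier results of these data known.

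Scrublet (scanpy 1.11.5) marked 1426 cells (9.48%) of replicate 1 and 0 in replicate 2, a failed call, where the 501 top-scoring cells (6.33%) stood in as an alternative. Doublets were kept otherwise. The fit was tested on simulated data of the comparison with Arg1-zero monocytes over 8634 genes. It recovered 79% of genes changed 2-fold and 100% of those changed 4-fold, with 15 false calls. The changed genes were drawn from those with higher mean levels. Counts were simulated with the fit's own spread and with no difference between libraries but depth. The recovery therefore does not cover low-count genes or differences between the libraries. Alternatives were DESeq2 1.42.0, other scaling, filters, gates and depths. Tables and plots used pandas 2.3.3, scipy 1.17.1, numpy 2.4.6 and matplotlib 3.10.9 in Python 3.11.15. Barcodes under 100 UMIs held 4.91 and 4.40% of all UMIs and gave the profile of free RNA.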

Additional observations from a re-analysis of the deposited data

How the results depend on the processing

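Within the alternatives run, no count of calls and no named gene reversed. The median of antigen presentation genes against Arg1 macrophages did turn, from -0.16 over 17 genes to 0.38 over the 12 genes tested without cells of class II or cycling transcripts. Cells with class II transcripts were left out by genes of this list, so the turn follows in part from the choice. With 2 libraries, leaving out either gives the other library's own difference, without a new fit. The sign was kept in all 188 genes against Arg1-zero monocytes and all 33 between cells with more and less Arg1. Against Arg1 macrophages it was kept in 123 of 124, with another gene lost each time (Ifit2 changed sign in replicate 1). These genes were called on the same 2 libraries, so the agreement was largely set by the selection and is no separate support. The replicate block mattered most: without it edgeR called 0 higher and 0 lower genes in both comparisons of groups, and 1 higher and 0 lower between cells with more and less Arg1. With 2 libraries per group, calls rest on a spread pooled over all groups, and low-count genes are limited by depth. The share of Arg1 monocyte cells in replicate 1 was 1.16% with at least 2 Arg1 UMIs, 0.638% with at least 5, 1.85% with minimums per 10000 UMIs and 0.424% after thinning, and in replicate 2 it was 1.66% with at least 5 Arg1 UMIs and 1.24% after thinning. The position between monocytes and macrophages was 38.5% to 55.7% by single libraries.

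Against Arg1-zero monocytes, 92 genes were higher and 96 lower. The counts were 154 and 256 without the filter on low counts, 370 and 404 with the compared groups fitted alone, 7 and 9 among cells with 5000 to 20000 UMIs, and 38 and 40 without cells of class II or cycling transcripts, which was chosen after seeing the data. DESeq2 gave 44 lower genes. Against Arg1 macrophages, 114 higher and 10 lower genes became 209 and 57 without the filter, 224 and 74 with the compared groups alone, 6 and 1 among cells with 5000 to 20000 UMIs, and 183 and 43 with minimums per 10000 UMIs. The stricter cell filter gave 75 higher and DESeq2 6 lower genes. Between cells with more and less Arg1, 22 higher and 11 lower genes became 7 and 3 with DESeq2, 44 and 27 without the filter, and 6 and 1 with doublet-marked or top-scored cells removed, and 11 were higher among cells with 5000 to 20000 UMIs. Except where fewer cells or other genes entered by construction, the cause was not tested. Of the named genes, 29 of 37 against Arg1-zero monocytes, 21 of 28 against Arg1 macrophages and 5 of 18 between cells with more and less Arg1 also passed with DESeq2.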

Other observations

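Xist, the RNA that silences an X chromosome in female cells, gave 0 UMIs in the Arg1 monocyte cells of both libraries. In counting error alone, 0 of 134 and 0 of 158 cells allow a share of up to 2.24 and 1.90% of cells with a UMI, which is no limit on cells that express the gene. In Arg1-zero monocytes it gave 168 UMIs in 15 of 426 cells of replicate 1, with up to 26 in a cell, and 54 UMIs in 5 of 371 cells of replicate 2, with up to 24 in a cell. Over both libraries the summed level in the Arg1 monocyte cells was at least 30-fold lower than in Arg1-zero monocytes, against a floor of 3 counts over the group. That bound takes UMIs as independent, while those of the Arg1-zero monocytes sat in few cells. Counted by cells, the limit of 2.24% lay under their 3.52% in replicate 1, and the limit of 1.90% lay above their 1.35% in replicate 2. Few Arg1 macrophages held Xist either, 1 of 313 cells (11 UMIs) and 1 of 60 (1 UMI), and Arg1-zero macrophages held it in 49 of 3562 and 0 of 334 cells. Cells gated as microglia held at most 1 Xist UMI each, in 8 of 6010 and 7 of 5284 cells. Among all cells Xist was rare as well, in 1.34 and 0.253% of cells. A UMI of the Y-linked genes Ddx3y, Eif2s3y, Uty or Kdm5d was held by 37.3 and 62.7% of the Arg1 monocyte cells. The shares were 36.9 and 55.8% of the Arg1-zero monocytes and 46.3 and 59.6% of all cells. The labels do not give the sex of the mice. Klrd1, a receptor chain of natural killer cells listed here with dendritic markers, likewise gave 0 UMIs against 124, at least 16.8-fold lower by the same bound on UMIs.

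Il10, the cytokine that dampens macrophages, stood at 11.9 and 3.85 CPM in the Arg1 monocyte cells, 5.75 and 6.48 CPM in Arg1-zero monocytes and 3.69 and 1.74 CPM in Arg1 macrophages, too few UMIs to order the groups. Slc7a2, an arginine transporter often raised with Arg1, gave 0 and 2.31 CPM in the Arg1 monocyte cells, under the 4.20 and 4.34 CPM of free RNA. C3, the central complement protein, stood at 11.9 and 41.5 CPM in the Arg1 monocyte cells against 5.08 and 3.49 CPM in Arg1 macrophages (log2 2.43, SE 0.46, edgeR adjusted p = 0.0153).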
